A study of Mus musculus with 10 samples.

Results

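MOF, encoded by Kat8, is a lysine acetyltransferase of the MYST family, and the genes described here are the 9 other lysine acetyltransferase genes Kat2a, Kat2b, Kat5, Kat6a, Kat6b, Kat7, Ep300, Crebbp and Hat1. They were taken by symbol, after matching of the versioned gene identifiers with the version dropped, and all 9 were found among the 47937 genes of each library. The question was whether the expression of other acetyltransferases changes when a single copy of Mof is lost, on a standard diet (SD) or a high-fat diet (HFD). All 9 passed the filter on low counts in each of the 5 comparisons.

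The data are mRNA-seq counts from whole white adipose tissue (WAT) of C57BL/6 mice, in 4 groups. On SD, at 8 weeks of age, there were 3 wild-type (Mof+/+) and 3 Mof heterozygous (Mof+/-) libraries. By the sample labels, there were after 20 weeks of HFD, at 27 weeks of age, 2 libraries of each genotype. The text of the study gives another length of HFD and other ages, so both are uncertain for these animals, and diet and age cannot be told apart. The Mof+/- animals carried the heterozygous allele in every tissue, and the RNA came from the whole fat depot, in which fewer cells of a type and less RNA per cell cannot be told apart. Levels are in CPM, each count scaled to the library's total on genes.

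Lysine acetyltransferases move an acetyl group from acetyl-CoA to lysines of histones and other proteins. MYST enzymes (Kat5, Kat6a, Kat6b, Kat7 and Kat8 itself) act in complexes that set which histone is acetylated, and the GNAT enzymes Kat2a and Kat2b act in the SAGA and ATAC coactivator complexes. The paralogues p300 and CBP, encoded by Ep300 and Crebbp, acetylate histone H3 at enhancers and are coactivators of CREB and of nuclear receptors, PPARγ of adipocytes among them. Hat1, a type B enzyme, acetylates newly made histone H4 before it is placed on DNA.

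The libraries differed in ways that touch these genes. Total counts on genes ran from 6724618 to 17171947 in 8 of the 10 libraries, and were 5531786 and 1044355 in the HFD libraries labelled Mof+/-. The shallow library, HFD Mof+/- replicate 1, held 26.9% mitochondrial and 7.76% skeletal muscle marker counts, against at most 8.81% and 0.189% in the others. In that library 27.9% of the 7190 genes at a mean of 10 to 70 CPM elsewhere had 0 counts, and the share counted in the same way for each other library was 0.0974% to 2.69%. The SD Mof+/- libraries were the only ones with counts of Xist, the non-coding RNA of the inactive X chromosome, at 46.1 to 139 CPM, and they had 0 counts of 4 genes of the Y chromosome, which summed to 77.6 to 225 CPM in the other 7 libraries. The methods of the study name male mice for this tissue's mRNA-seq, which the libraries labelled SD Mof+/- do not match, so their labels are in doubt and each SD genotype value compares libraries as labelled. Sex-linked expression and genotype cannot be told apart on SD, nor sex-linked expression and diet within Mof+/-. SD Mof+/+ replicate 3 held 464 CPM of 7 lymphocyte markers, against at most 56.3 CPM in any other library, and was the highest SD wild type for Kat2a, Kat5, Kat6a, Kat6b and Hat1. The third SD libraries carry column headings of the opposite genotype in their files, and the labels were followed. In log2 CPM, SD Mof+/- replicate 3 had Pearson r of 0.831 and 0.884 within its label and 0.702 to 0.716 with SD Mof+/+. SD Mof+/+ replicate 3 had 0.900 and 0.881 within its label, and 0.850 and 0.819 with SD Mof+/- replicates 1 and 2. Both went with their labels in this and in Xist and Y-linked counts, but whether their genotypes are as labelled was not tested. The summed level of 8 adipocyte markers was 14540 to 52980 CPM, so all libraries carried the labelled tissue.

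Kat8 itself was 21.5, 21.4 and 20.4 CPM in SD Mof+/+ and 12.2, 18.8 and 11.5 CPM in SD Mof+/-. The groups did not overlap in CPM, but they did after TMM scaling, and the fitted log2 fold change was -0.22 (standard error (SE) 0.35, 95% interval -1.02 to 0.58, adjusted p = 0.736 in edgeR's quasi-likelihood test). It was -0.52 with a correction for transcript length, and with a library left out it ran from -0.44 (without Mof+/- replicate 2) to -0.10 (without Mof+/- replicate 1), passing in none of these fits. On HFD, Kat8 was 18.1 and 19.2 CPM in Mof+/+ and 20.1 and 10.5 CPM in Mof+/-. The first of the HFD Mof+/- values rests on 21 counts (exact 95% binomial interval 12.5 to 30.7 CPM, counting error only) and was not below the wild type, so its label was not borne out by its Kat8 counts. Kat8 shares 122 exon bases with Prss8 on the opposite strand, which had 36 counts over all libraries, and the strand setting of the counting is not given in the sources used here.

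Promoters in RefSeq (build GRCm38.p6, from 250 bases before to 50 after the start) were found for 8 of the 9 genes, with 11 start sites, and not for Kat6a. The promoters of the paralogues Ep300 and Crebbp are shown because Ep300 passed the test between the diets in Mof+/+ and its paralogue did not, and that of Hat1 because its fitted values ran opposite to most other members on SD. Capitals mark matches on either strand to the GC box (GGGCGG), the ETS motif (CCGGAAG), the NRF1 motif (GCATGCGC), the cyclic AMP response element (TGACGTCA) and the CCAAT box (CCAAT), the first of which may overlap itself.
Ep300, chr15:81585964-81586263, plus strand: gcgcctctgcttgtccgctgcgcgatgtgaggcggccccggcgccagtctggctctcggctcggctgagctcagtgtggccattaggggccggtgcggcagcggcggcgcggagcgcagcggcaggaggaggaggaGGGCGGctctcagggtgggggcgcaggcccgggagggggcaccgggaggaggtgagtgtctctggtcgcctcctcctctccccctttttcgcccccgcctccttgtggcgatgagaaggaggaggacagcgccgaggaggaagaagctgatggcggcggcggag
Crebbp, chr16:4213355-4213654, minus strand: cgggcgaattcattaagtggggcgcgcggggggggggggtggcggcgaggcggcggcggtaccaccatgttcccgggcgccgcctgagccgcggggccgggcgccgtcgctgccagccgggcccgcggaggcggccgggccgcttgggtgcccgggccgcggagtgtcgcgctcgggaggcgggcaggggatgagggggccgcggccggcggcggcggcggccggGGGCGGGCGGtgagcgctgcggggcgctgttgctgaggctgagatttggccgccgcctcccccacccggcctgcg
Hat1, chr2:71389010-71389309, plus strand: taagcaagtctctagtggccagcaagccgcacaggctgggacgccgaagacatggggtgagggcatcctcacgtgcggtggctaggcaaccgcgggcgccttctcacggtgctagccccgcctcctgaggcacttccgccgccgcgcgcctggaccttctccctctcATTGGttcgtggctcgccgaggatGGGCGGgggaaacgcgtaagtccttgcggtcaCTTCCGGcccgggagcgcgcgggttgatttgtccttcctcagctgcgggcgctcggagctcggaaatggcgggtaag
The Ep300 window held 1 GC box and the Crebbp window 2, overlapping, while the Hat1 window held a GC box, an ETS motif and a CCAAT box. Of 32851 mouse promoters of this length, 35.7% held the GC box, 8.86% the ETS motif, 2.71% the NRF1 motif, 1.79% the cyclic AMP response element and 37.4% the CCAAT box. The windows of Ep300, Crebbp and Hat1 had 30, 49 and 32 CpG pairs, above the median of 7 over all promoters. No member's window held the NRF1 or cyclic AMP motif in these letters, which says nothing of the factors.

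In the annotation (GRCm38, GENCODE M21) Ep300 lies at chr15:81585351-81652077, Kat6a at chr8:22859535-22943259, Kat2a at chr11:100704746-100712465 and Hat1 at chr2:71388958-71441622, all protein-coding, and counts cover all their exons. Per kilobase of exon, Kat2b was the most expressed member in SD Mof+/+ WAT at 13.2 ± 2.15 CPM per kb (standard deviation, n = 3), followed by Kat2a at 10.9 ± 1.65 and Kat7 at 10.7 ± 2.75 CPM per kb. Kat6a (8.06 ± 1.79 CPM per kb), Kat5 (6.91 ± 0.862 CPM per kb) and Hat1 (5.39 ± 2.36 CPM per kb) followed, close to Kat8 at 7.29 ± 0.204 CPM per kb. Ep300 (4.70 ± 0.611 CPM per kb), Crebbp (4.03 ± 1.08 CPM per kb) and Kat6b (2.09 ± 0.222 CPM per kb) were lowest. Every neighbour in this order overlapped the next except Crebbp and Kat6b, so the order of adjacent genes above Kat6b is not resolved. Genes farther apart can be, since every SD Mof+/+ value of Kat2b was above every value of Kat6a, Kat5, Hat1, Ep300 and Crebbp. With the longest transcript as the length, Kat7 came first at 16.7 CPM per kb and Kat6b stayed last at 4.57 CPM per kb. Kat6b remained last in all 4 groups by either length.

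**Figure D1:**
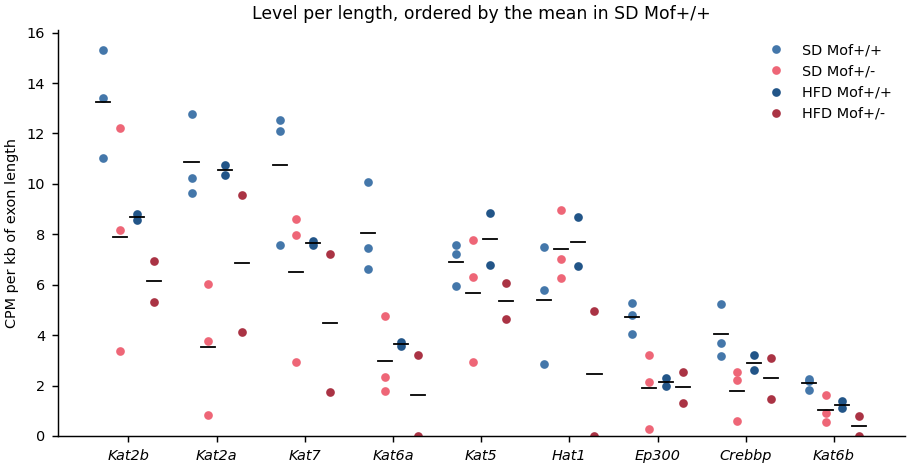
CPM per kb of exon length (vertical axis) of the 9 genes, ordered by their mean in SD Mof+/+, with a point per library and a bar at the mean of each group. Kat2b leads at 13.2 and Kat6b is last at 2.09 CPM per kb in SD Mof+/+, and the SD Mof+/- points lie lower for most genes but not for Hat1.

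Between the genotypes on SD, none of the 9 members passed the test in edgeR, with 1 (Kat6a) at an unadjusted p under 0.05, and none passed in DESeq2. Over all genes 25.7% were at an unadjusted p under 0.05 and 15.9% passed in DESeq2. The largest fitted differences were in Kat2a (log2 fold change -1.28) and Kat6a (-1.09), both lower in Mof+/-, and Hat1 was fitted higher (0.84). Without SD Mof+/- replicate 3 the log2 fold changes were -0.97 for Kat6a, -0.82 for Kat2a, -0.49 for Ep300, -0.44 for Crebbp, -0.41 for Kat6b and -0.06 for both Kat2b and Kat7, each nearer 0. Without SD Mof+/- replicate 1 they were -1.88 for Kat2a, -1.59 for Ep300, -1.57 for Kat6a, -1.15 for Kat6b, -0.83 for Kat2b and -0.53 for Kat7, each farther from 0, so the sizes depend on which Mof+/- libraries are fitted. With the genotypes as in the column headings, all 9 members were fitted at 0.00 to 0.52 and none passed in edgeR. Over all genes 727 of 13864, or 5.24%, had an adjusted p under 0.05 in edgeR's quasi-likelihood test, 462 higher and 265 lower in Mof+/-. In CPM, 5 of the 9 members were lower in every Mof+/- library than in any Mof+/+ library, as were 30.6% of all genes tested. After TMM scaling this was so for 3 members (Kat2a, Kat6a and Crebbp) and 17.5% of genes, and Hat1 was higher without overlap, as were 18% of genes. The members' median log2 fold change was -0.69, compared with -0.07 over all genes, with 7 of the 9 below 0. Corrected for transcript length, it was -0.32 against -0.12, with 8 of the 9 members and 56.6% of all genes below 0.

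Kat6a encodes MOZ, the catalytic subunit of a complex with BRPF proteins that acetylates histone H3 and is needed for blood stem cells. Its level was 60.9, 68.6 and 92.4 CPM in SD Mof+/+ and 43.8, 16.4 and 21.4 CPM in SD Mof+/-. The groups did not overlap, although each spread widely. Its log2 fold change was -1.09 (SE 0.38, 95% interval -1.94 to -0.23, adjusted p = 0.115 in edgeR over all genes). Without SD Mof+/- replicate 1 it was -1.57, with an adjusted p of 0.0372 in edgeR. With any other SD library left out it was -1.20 to -0.80 and did not pass, with adjusted p of 0.198 to 0.312 in edgeR, and with the headings' grouping it was 0.04.

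Kat6b encodes MORF, the paralogue of MOZ. It was 30.9, 36.8 and 37.8 CPM in SD Mof+/+ and 27.1, 15.3 and 9.07 CPM in SD Mof+/-. Every Mof+/- library was below the wild type in CPM, but the first of them overlapped after TMM scaling. The log2 fold change was -0.69 (SE 0.39, 95% interval -1.58 to 0.20, adjusted p = 0.305 in edgeR).

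Kat7 encodes HBO1, the acetyltransferase linked to origin licensing, and Kat5 encodes TIP60, which acetylates histones H2A and H4 and acts in DNA repair. Kat7 was 41.9, 69.4 and 67.0 CPM in SD Mof+/+ and 44.0, 47.7 and 16.2 CPM in SD Mof+/-. Kat5 was 25.3, 20.8 and 26.6 CPM in SD Mof+/+ and 22.1, 27.3 and 10.3 CPM in SD Mof+/-. Both overlapped between genotypes, and both were lowest in Mof+/- replicate 3. Their log2 fold changes were -0.38 (95% interval -1.27 to 0.51) and 0.06 (95% interval -0.81 to 0.93), with adjusted p of 0.582 and 0.939 in edgeR. Kat5 shares 426 exon bases with Rnaseh2c on the opposite strand, so its counts are uncertain if strand was not used.

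Kat2a encodes GCN5, the catalytic subunit of SAGA and ATAC. It was 35.6, 33.6 and 44.4 CPM in SD Mof+/+ and 20.96, 13.1 and 2.83 CPM in SD Mof+/-. The groups were well apart, while the Mof+/- libraries spread from 2.83 to 20.96 CPM, the lowest resting on 19 counts. Its log2 fold change was -1.28 (SE 0.57, 95% interval -2.57 to 0.01, adjusted p = 0.197 in edgeR).

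Kat2b, which encodes PCAF, was 74.6, 65.2 and 53.7 CPM in SD Mof+/+ and 59.4, 39.7 and 16.4 CPM in SD Mof+/-. The groups overlapped, and the log2 fold change was -0.41 (SE 0.40, 95% interval -1.32 to 0.50, adjusted p = 0.565 in edgeR).

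Ep300 was 75.1, 68.5 and 57.8 CPM in SD Mof+/+ and 45.8, 30.7 and 4.16 CPM in SD Mof+/-. Every Mof+/- library was lower in CPM, but the first of them overlapped after TMM scaling, and replicate 3 held 28 counts. The log2 fold change was -0.99 (SE 0.62, 95% interval -2.41 to 0.42, adjusted p = 0.354 in edgeR). Crebbp was 71.0, 43.0 and 49.7 CPM in SD Mof+/+ and 30.1, 34.4 and 8.03 CPM in SD Mof+/-. It was lower without overlap in CPM and after TMM scaling, with a log2 fold change of -0.84 (SE 0.47, 95% interval -1.91 to 0.23, adjusted p = 0.3001 in edgeR).

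Hat1 was fitted above 0 on SD, as was Kat5. It was 16.7, 8.22 and 21.7 CPM in SD Mof+/+ and 18.1, 20.2 and 25.9 CPM in SD Mof+/-. The groups overlapped in CPM, and Mof+/- replicate 3, lowest for 7 of the other 8 members, was highest for Hat1. Fitted, it was at a log2 fold change of 0.84 (SE 0.43, 95% interval -0.14 to 1.81, adjusted p = 0.259 in edgeR).

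**Figure D2:**
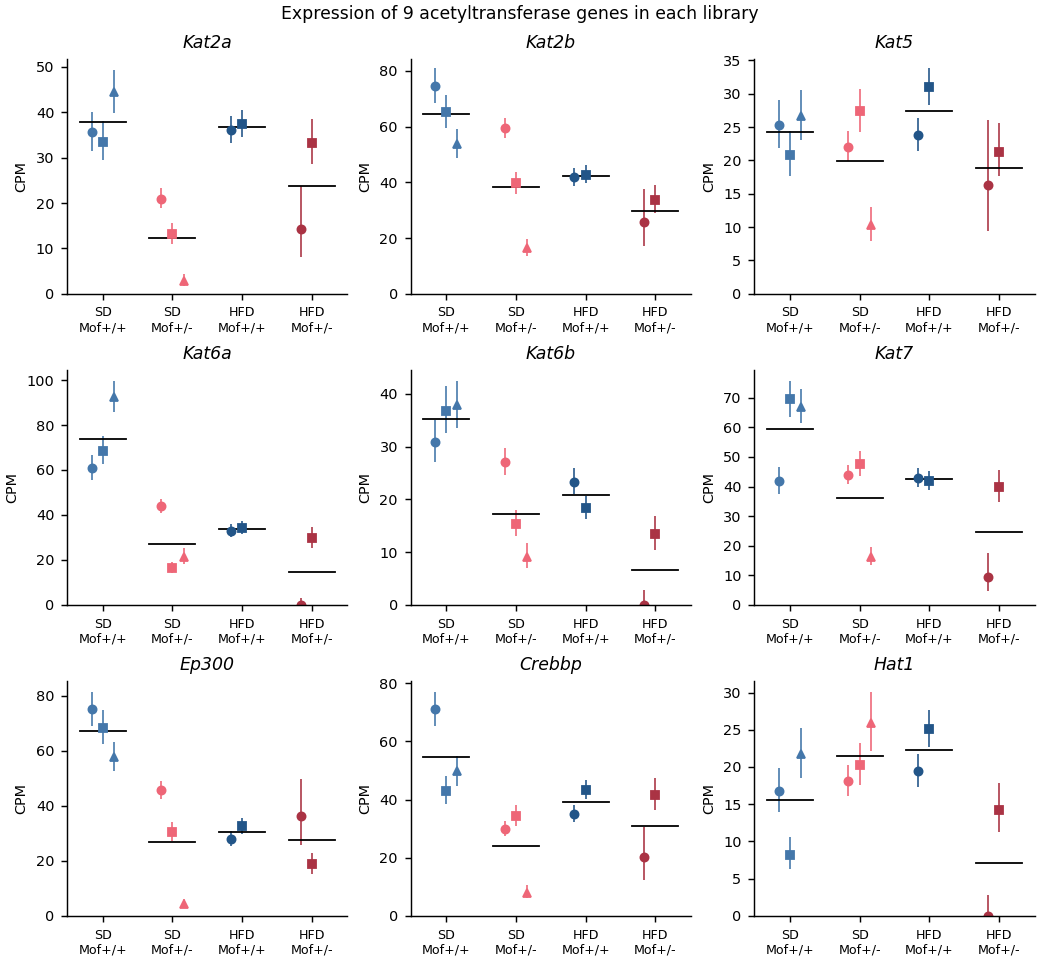
CPM (vertical axis) of each gene in each library, by diet and genotype, with exact 95% binomial intervals for counting error (3 counts as the upper limit at 0), a bar at each group mean and circles, squares and triangles for replicates 1, 2 and 3. Kat2a and Ep300 are at 2.83 and 4.16 CPM in SD Mof+/- replicate 3, and Kat6a, Kat6b and Hat1 are at 0 in HFD Mof+/- replicate 1.

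The differences on SD moved with transcript length. Across 13839 genes, the Spearman correlation of the log2 fold change with exon length was -0.43, and the median log2 fold change fell from 1.03 in the shortest 10% of genes to -0.55 in the longest 10%. Within a library, the Spearman correlation of level with exon length was 0.234 to 0.257 in SD Mof+/+. In SD Mof+/- replicates 1, 2 and 3 it was 0.161, 0.0752 and -0.0463, so the libraries of this group differed in it. Exon length was 2886 bases for Hat1, 3480 for Kat2a and 3509 for Kat5, but 9180 for Kat6a, 13540 for Crebbp, 14273 for Ep300 and 16826 for Kat6b. Corrected for length, the log2 fold change on SD was -0.19 for Kat6b, -0.39 for Crebbp, -0.61 for Ep300, -0.73 for Kat6a and 0.51 for Hat1, each nearer 0 than before. That of Kat2a, a short transcript, was -1.40 (95% interval -2.72 to -0.07), and its adjusted p of 0.211 in edgeR did not pass. The correction also removes any biological difference that follows length.

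Cell markers moved as well. The summed level of 7 endothelial markers, Pecam1 and Cdh5 among them, was 1065 to 2696 CPM in SD Mof+/+ and 172 to 287 CPM in SD Mof+/-. All 7 were lower in every Mof+/- library. The 5 mesothelial markers summed to 22.5 to 59.1 and 151 to 319 CPM, each higher without overlap. The 6 glial markers summed to 112 to 1105 and 35.5 to 56.6 CPM, with 5 lower without overlap and Cldn11 at 0 in all SD Mof+/- libraries. The 6 ovary markers summed to 2.32 to 8.77 and 13.8 to 81.8 CPM, of which Star was higher without overlap and Cyp19a1 was at 0 throughout. The 8 adipocyte markers summed to 17500 to 23080 and 33260 to 52980 CPM but did not move together. Fabp4, Adipoq, Cidec and Retn were higher in every Mof+/- library, with Fabp4 at 8000 to 9720 and 15700 to 34300 CPM, while Plin1, Lipe, Lep and Pparg overlapped between the genotypes. No defining marker of adipocytes or endothelium was at 0 in these libraries, and the part of cell mix in the members' values was not tested.

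**Figure D3:**
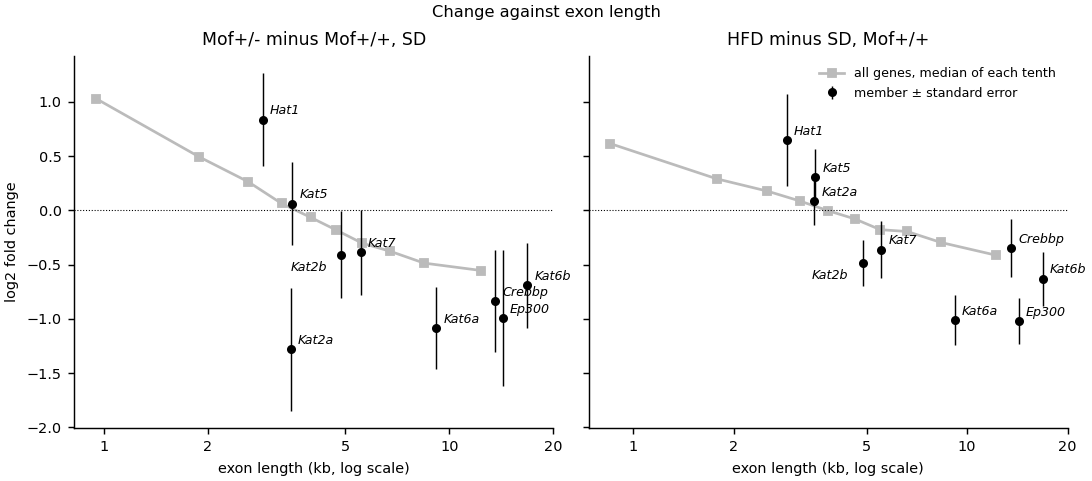
Log2 fold change (vertical axis) against exon length in kb (horizontal axis, log scale) for the genotypes on SD (left) and the diets in Mof+/+ (right), with the members as points with their SE and the median of all genes in each 10% of the length range, by rank, as grey squares. The grey line falls from 1.03 to -0.55 on the left and from 0.62 to -0.41 on the right, and 8 of the 9 members on the left and 6 on the right are below the median of their own 10% of lengths, with Kat5 on the left and Kat2a on the right close to it.

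On HFD, no member passed the test between the genotypes, nor was any at an unadjusted p under 0.05 in edgeR. Over all genes 0 of 14120, or 0%, had an adjusted p under 0.05 in edgeR, with 1732 (12.3%) at an unadjusted p under 0.05. DESeq2 called 209 genes (1.48%), none of them a member. The members' median log2 fold change was -0.32, against -0.24 over all genes.

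Kat6a, Kat6b and Hat1 had 0 of 1044355 counts in HFD Mof+/- replicate 1, which allows up to 2.87 CPM by counting error alone. The 27.9% of mid-level genes at 0 in this library go beyond that error, so the zeros do not bound the level in the tissue. In HFD Mof+/- replicate 2 they were 29.6, 13.4 and 14.3 CPM, and in HFD Mof+/+ they were 32.9 and 34.3 CPM, 23.4 and 18.4 CPM, and 19.4 and 25.0 CPM. The values of HFD Mof+/- replicate 2 were below both HFD Mof+/+ values for each of these genes. The 95% intervals of these genes' log2 fold changes spanned -4.90 to 3.11, -5.44 to 2.80 and -5.41 to 2.77.

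The other members had counts in both HFD Mof+/- libraries. Kat2a was 36.1 and 37.4 CPM in HFD Mof+/+ and 14.4 and 33.3 CPM in HFD Mof+/-. Kat2b was 41.8 and 42.8 CPM in Mof+/+ and 25.9 and 33.8 CPM in Mof+/-, and Kat7 was 42.9 and 42.0 CPM in Mof+/+ and 9.57 and 39.9 CPM in Mof+/-. All 3 were lower in both Mof+/- libraries in CPM, but Kat2a and Kat7 overlapped after TMM scaling. Kat5 was 23.8 and 31.0 CPM in Mof+/+ and 16.3 and 21.3 CPM in Mof+/-. In all, 7 of the 9 members were lower without overlap in CPM and 5 after TMM scaling, as were 45.6% and 37.9% of all genes tested. Cell markers differed between these groups too. All 8 macrophage markers were lower in Mof+/- without overlap, at a sum of 4493 and 5900 CPM in Mof+/+ and 1226 and 2240 CPM in Mof+/-. The 12 proliferation genes, 11 of them lower, summed to 409.5 and 495.5 CPM and to 125.4 and 161.6 CPM. All 12 muscle markers were higher, at 70.3 and 79.2 CPM in Mof+/+ and 77620 and 1893 CPM in Mof+/-, and the part of these shifts in the members' values was not tested. Ep300 was 28.0 and 32.7 CPM in Mof+/+ and 36.4 and 18.8 CPM in Mof+/-, and Crebbp was 35.2 and 43.4 CPM in Mof+/+ and 20.1 and 41.8 CPM in Mof+/-. Ep300 and Crebbp overlapped, in opposite order within Mof+/-. The log2 fold changes of these 6 genes lay between -0.48 (Kat7, 95% interval -2.31 to 1.34) and 0.22 (Ep300, 95% interval -1.41 to 1.85), with adjusted p of 0.876 to 0.987 in edgeR.

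Without the shallow library, which leaves a lone HFD Mof+/- library against 2 of Mof+/+, the members' log2 fold changes on HFD ran from -0.52 (Ep300) to 0.26 (Crebbp). Kat6a was then at -0.01, Kat6b at -0.47 and Hat1 at -0.47, so the low fitted values of these 3 genes on HFD rest in large part on the library at 0 counts. With a lone Mof+/- library the spread within that group is not measured, so only the sizes are given.

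The genotype difference was not shown to depend on diet for any member. In the interaction fit over all 10 libraries, 14 of 15897 genes (0.0881%) passed in edgeR, none of them a member. The largest fitted interaction was that of Hat1, at -2.15 (95% interval -4.79 to 0.50, adjusted p = 0.503 in edgeR). Without HFD Mof+/- replicate 1, where Hat1 is at 0 counts, it was -1.31 and did not pass, and without replicate 2 it passed against the library at 0 counts alone, which gives no measure of size. The members' median was 0.13 against -0.41 over all genes. The median over all genes was -0.31 with DESeq2's size factors, -0.25 without HFD Mof+/- replicate 1 and 0.005 with at least 10 counts in every library, so it depends on the fit.

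The calls among the members were between the diet groups, which also differed in age. In Mof+/+, Ep300 and Kat6a were lower on HFD, by about 2-fold each, and no member rose past the threshold. In edgeR 1457 of 14939 genes (9.75%) passed, 557 of them (3.73%) lower on HFD. That makes 2 of the 9 members, both lower, and none in the fit of all 10 libraries or with the headings' grouping. The 7 endothelial markers, each lower on HFD without overlap, summed to 1065 to 2696 CPM on SD and 392 and 495 CPM on HFD in these groups. The 6 glial markers, also each lower, summed to 112 to 1105 CPM on SD and 51.4 and 53.1 CPM on HFD. All 8 macrophage markers and all 12 proliferation genes were higher on HFD without overlap, and the proliferation genes summed to 138 to 259 and to 409.5 and 495.5 CPM. Of the 8 adipocyte markers 4 were lower and 3 higher on HFD without overlap, and of 5 progenitor markers 3 were lower. The part of these shifts in the members' values was not tested. These libraries all carried Y-linked counts and no Xist, and each held at least 7301119 counts.

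Ep300 fell from 75.1, 68.5 and 57.8 CPM on SD to 28.0 and 32.7 CPM on HFD in Mof+/+. The groups were far apart, and the HFD libraries lay close together. The log2 fold change was -1.02 (SE 0.21, 95% interval -1.52 to -0.52, adjusted p = 0.0318 in edgeR). DESeq2 gave an adjusted p of 0.0011. In the fit of 10 libraries it was -1.04 (SE 0.71, adjusted p = 0.670 in edgeR), a like size with a wider error, and with the headings' grouping -0.60 (adjusted p = 0.953 in edgeR).

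Kat6a fell from 60.9, 68.6 and 92.4 CPM on SD to 32.9 and 34.3 CPM on HFD, again without overlap. The highest SD value is that of the library with lymphocyte markers at 464 CPM, and without it the log2 fold change was -0.84 and passed in edgeR. With all libraries, the log2 fold change was -1.01 (SE 0.23, 95% interval -1.55 to -0.47, adjusted p = 0.0396 in edgeR). In the fit of 10 libraries it was -1.02 (SE 0.82, adjusted p = 0.739 in edgeR), and with the headings' grouping -0.54 (adjusted p = 0.855 in edgeR). Corrected for transcript length, Ep300 was -0.62 (adjusted p = 0.117) and Kat6a -0.74 (adjusted p = 0.114) in edgeR, so neither passed. With the replicate number as a block in the fit, Ep300 passed but Kat6a did not (-0.83, adjusted p = 0.0768 in edgeR). Both kept a negative sign in every alternative run, but both calls were also lost when SD Mof+/+ replicate 1, SD Mof+/+ replicate 2 or either HFD Mof+/+ library was left out, with adjusted p of 0.0634 to 0.333 in edgeR. In those fits Ep300 was at -1.12 to -0.89 and Kat6a at -1.13 to -0.95, so the sizes moved little.

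Kat6b was 30.9, 36.8 and 37.8 CPM on SD and 23.4 and 18.4 CPM on HFD, and Kat2b was 74.6, 65.2 and 53.7 CPM on SD and 41.8 and 42.8 CPM on HFD. Neither overlapped between diets. Their log2 fold changes, -0.63 (95% interval -1.22 to -0.04, adjusted p = 0.152) and -0.49 (95% interval -0.98 to 0.01, adjusted p = 0.183), did not pass in edgeR. In all, 4 of the 9 members were lower without overlap in CPM, as were 28.2% of all genes tested.

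Crebbp, the paralogue of Ep300, was 71.0, 43.0 and 49.7 CPM on SD and 35.2 and 43.4 CPM on HFD in Mof+/+. The groups overlapped, and the log2 fold change was -0.35 (95% interval -0.97 to 0.27, adjusted p = 0.437 in edgeR). Kat7 (-0.36, 95% interval -0.97 to 0.25), Kat2a (0.08, 95% interval -0.42 to 0.59), Kat5 (0.31, 95% interval -0.31 to 0.92) and Hat1 (0.65, 95% interval -0.35 to 1.64) also overlapped between diets and did not pass in edgeR. In this fit the interval of Kat2a leaves no room for a 2-fold change, but in the fit of all 10 libraries it was -1.31 to 1.45 and does. The members' median log2 fold change was -0.36 against -0.04 over all genes, and within the 9 it was lower the longer the exons (Spearman correlation -0.80, n = 9 genes, which are not replicates), compared with -0.28 across 14907 genes. Corrected for transcript length, the members' median was -0.21 against -0.04 over all genes.

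In Mof+/-, no member passed between the diets, and 0 of 13610 genes (0%) passed in edgeR, with 1166 (8.57%) at an unadjusted p under 0.05. DESeq2 called 402 genes (2.95%), none of them a member. The log2 fold changes ran from -1.56 (Hat1, 95% interval -4.33 to 1.21) to 0.97 (Kat2a, 95% interval -1.13 to 3.06), with a median of -0.34 against -0.26 over all genes. Ep300 and Kat6a, lower on HFD in Mof+/+, were 0.10 (95% interval -2.01 to 2.20) and -0.87 (95% interval -3.66 to 1.91) in Mof+/-. Their interactions were 1.07 (95% interval -1.12 to 3.26) and 0.21 (95% interval -2.28 to 2.70), so the change between the diet groups was not shown to differ by genotype. Without HFD Mof+/- replicate 1 the log2 fold change between the diet groups in Mof+/- was -0.61 for Ep300, 0.01 for Kat6a and -0.71 for Hat1. The extreme of Hat1 thus rests in large part on the library at 0 counts.

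**Figure D4:**
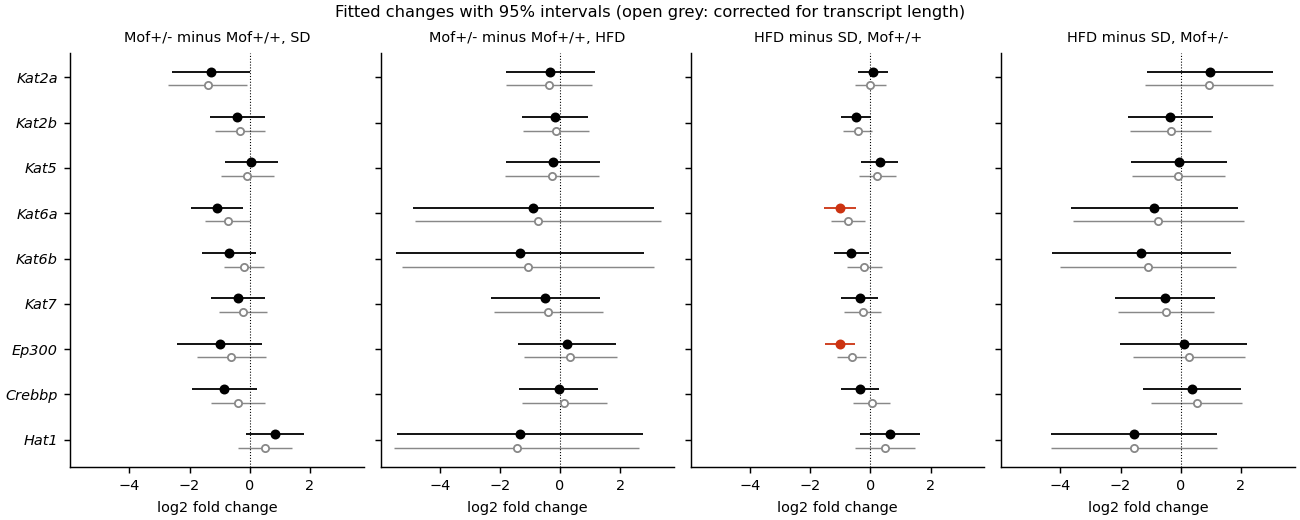
Log2 fold change (horizontal axis, the same in each panel) with 95% intervals of the 9 genes in 4 comparisons, filled as fitted and open after correction for transcript length, with red for an adjusted p under 0.05 in edgeR. Red appears in 2 places, Ep300 and Kat6a between the diets in Mof+/+, at -1.02 and -1.01.

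The counts of paralogues can be compared within a library, which removes the scaling between libraries. These ratios were chosen after the values were seen. The ratio of Kat2a to Kat2b counts was 0.478, 0.515 and 0.827 in SD Mof+/+ and 0.353, 0.331 and 0.173 in SD Mof+/-. It was 0.864 and 0.874 in HFD Mof+/+ and 0.556 and 0.984 in HFD Mof+/-. The SD Mof+/- libraries were thus the lowest of all, a difference of -1.11 in mean log2 ratio between genotypes on SD (exact two-sided permutation p = 0.1, the smallest that 3 against 3 libraries allow). No outcome of this test could reach the threshold. By the column headings, where the third SD libraries change places, the genotypes overlap.

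The ratio of Ep300 to Crebbp counts, genes of 14273 and 13540 bases of exon, was 1.06, 1.59 and 1.16 in SD Mof+/+ and 0.796 and 0.753 in HFD Mof+/+. The diets did not overlap, with a mean log2 difference of -0.69 (exact two-sided permutation p = 0.2, the smallest that 3 against 2 allow). In Mof+/- it ranged from 0.519 to 1.52 on SD and was 1.81 and 0.45 on HFD, wider than the range in Mof+/+. Kat6a to Kat6b was 1.86 to 2.44 in SD Mof+/+, 1.07 to 2.36 in SD Mof+/-, 1.41 and 1.87 in HFD Mof+/+ and 2.22 in HFD Mof+/- replicate 2, and it overlapped between the genotypes on SD and between the diets in Mof+/+, the comparisons tested for it. Over the 10 tests of these ratios the lowest Benjamini-Hochberg adjusted p was 0.5.

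**Figure D5:**
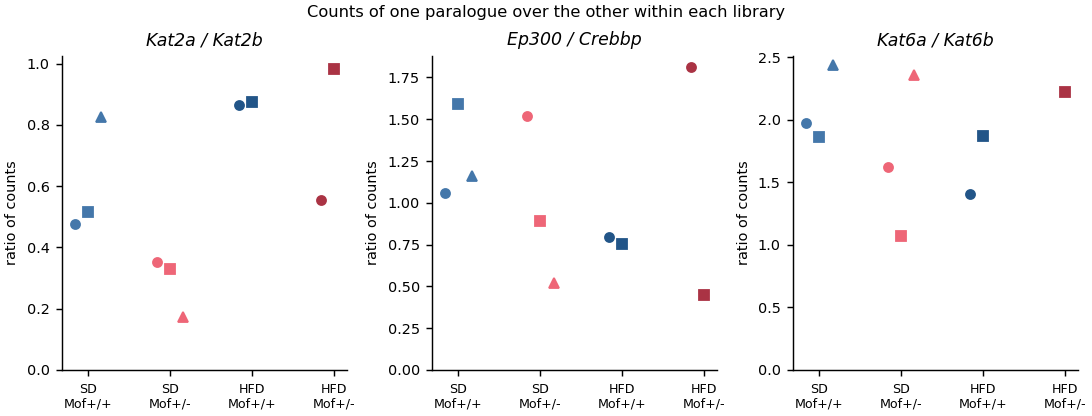
Ratio of the counts of a gene to those of its paralogue (vertical axis, from 0) in each library, by diet and genotype, with circles, squares and triangles for replicates 1, 2 and 3. Kat2a over Kat2b is lowest in the SD Mof+/- libraries (0.173 to 0.353), and Ep300 over Crebbp is lower on HFD than on SD in Mof+/+.

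Partners of these enzymes and other genes of acetylation were followed as 9 lists. On SD, 0 of the 109 list genes tested passed between the genotypes in edgeR, with 29 (26.6%) at an unadjusted p under 0.05, near the 25.7% of all genes. DESeq2 called 10 list genes (9.17%, and 15.9% of all genes). In edgeR, 5 passed with at least 10 counts in every library, 4 without a filter, 1 with the length correction and 7 without SD Mof+/- replicate 1, or 5.1%, 3.6%, 0.917% and 6.42%. The shares over all genes in these fits were 11.2%, 8.35%, 2.47% and 6.89%. Over all genes 53.2% were fitted below 0. Of the 18 SAGA and ATAC subunits, 15 were below 0, with a median of -0.33 and the smallest p for Atxn7, a SAGA deubiquitinase subunit (log2 fold change -1.27, adjusted p = 0.0578 in edgeR). All 10 tested partners of p300 and CBP were below 0, at a median of -0.75, led by the coactivator Ncoa3 (-1.20, adjusted p = 0.0799 in edgeR). Among the 9 subunits of the MOZ, MORF and HBO1 complexes 7 were below 0 (median -0.71), with the smallest p for the scaffold Brpf1 (-1.34, adjusted p = 0.0795 in edgeR). Corrected for transcript length, 14 of 18, 10 of 10 and 7 of 9 genes of these lists were below 0, at medians of -0.48, -0.61 and -0.39, with 56.6% of all genes below 0 at a median of -0.12.

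Subunits of the TIP60 complex were balanced on SD, 9 above and 8 below 0 of 17 (median 0.01), with Yeats4, its acetyl-lysine reader, at 1.47 (adjusted p = 0.0655 in edgeR). The 6 partners of Hat1 had a median of -0.23 (0.09 with the length correction), and Asf1a, a histone chaperone, was at 1.29 (adjusted p = 0.128 in edgeR). The 11 other acetyltransferases tested had a median of -0.67, and the 18 deacetylases -0.24, with Hdac7 at -1.17 (adjusted p = 0.0537 in edgeR). The smallest p of the other acetyltransferases was that of Elp3, of the Elongator complex, at 0.67 (adjusted p = 0.0974 in edgeR). The 10 genes of acetyl-CoA supply had a median of -0.13 and the 12 proliferation genes -0.91, with Acly at -1.14 (adjusted p = 0.337) and Mcm6 at -1.27 (adjusted p = 0.0897) in edgeR.

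Between the diets in Mof+/+, 10 of 110 list genes (9.09%) passed in edgeR, near the 9.75% of all genes, 3.73% lower and 6.02% higher on HFD. The count was 0 in the fit of 10 libraries and with the headings' grouping, 24 in DESeq2 (21.8%, and 20% of all genes) and 16 with at least 10 counts in every library (15.4%, and 16.5% of all genes). It was 1, 2 and 3 without HFD Mof+/+ replicate 2, HFD Mof+/+ replicate 1 and SD Mof+/+ replicate 1, where 0.384%, 1.49% and 1.63% of all genes passed, and 22 without SD Mof+/+ replicate 3, where 14.9% did. As fitted, 4 of the 10 genes of acetyl-CoA supply fell and none rose. Acly, ATP citrate lyase, which makes acetyl-CoA from citrate in the cytosol and nucleus, went from 1318, 1114 and 1091 CPM on SD to 178 and 180 CPM on HFD (log2 fold change -2.59, SE 0.21, adjusted p = 0.00303 in edgeR). The HFD libraries were far below those on SD. In SD Mof+/- it was 1003, 147 and 128 CPM, with replicate 1 near the SD wild type and the others near the HFD level. Acss3, an acyl-CoA synthetase, fell by 2.87 on the log2 scale, and the pyruvate dehydrogenase subunits Pdha1 and Pdhb fell by 0.98 and 0.75 (adjusted p = 0.0135, 0.0273 and 0.0379 in edgeR).

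Of the 12 proliferation genes 3 rose on HFD in Mof+/+, namely Cdk1 (2.73), Mki67 (2.57) and Pcna (1.36), and all 12 were fitted above 0. The 8 macrophage markers moved with them, at a summed level of 850 to 1559 CPM on SD and 4493 and 5900 CPM on HFD in Mof+/+, and their part in these values was not tested. Of the 17 TIP60 subunits, Epc1 fell by 1.24 on the log2 scale and Yeats4 rose by 1.06 (adjusted p = 0.0368 and 0.0468 in edgeR). Naa50, an N-terminal acetyltransferase, rose by 1.22 (adjusted p = 0.0124 in edgeR), the only 1 of 12 other acetyltransferases to pass.

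No gene of the lists for SAGA and ATAC, for the MOZ, MORF and HBO1 complexes, for p300 and CBP, for Hat1 or for deacetylases passed between diets in Mof+/+. Their smallest p were those of Taf6l (0.87, adjusted p = 0.0602), Brpf3 (-0.80, adjusted p = 0.0881), Ncoa1 (-0.9998, adjusted p = 0.0534), Rbbp7 (-0.67, adjusted p = 0.0934) and Hdac7 (-0.88, adjusted p = 0.110) in edgeR. All 10 tested partners of p300 and CBP were again fitted below 0 (median -0.55), as were 52.2% of all genes, and 9 of 10 with the length correction (median -0.29). These comparisons and those on SD share the SD Mof+/+ libraries. In the interaction, with genotype on HFD and with diet in Mof+/-, none of the list genes passed in edgeR, with adjusted p from 0.213 upward and 9, 6 and 4 (8.11%, 5.5% and 3.67%) at an unadjusted p under 0.05, where 12.4%, 12.3% and 8.57% of all genes were. DESeq2 called 2, 0 and 2 of them, with 3.08% of all genes in the interaction and 2.95% with diet in Mof+/-. Between the genotypes on HFD, 38 of 110 (34.5%) passed without HFD Mof+/- replicate 1 and 62 of 109 (56.9%) without replicate 2, beside 27.2% and 47.9% of all genes, each fit leaving a lone Mof+/- library. Without replicate 2, 30 list genes (27%, and 17.7% of all genes) passed in the interaction and 15 (13.8%, and 13.8% of all genes) with diet in Mof+/-.

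Across the 10 libraries, the genes whose log2 CPM followed a member most closely were sought among 11308 genes with a mean of at least 50 counts. Ep300 was most like Usp32 (Pearson r = 0.992), Kat7 like Wdr33 (0.985), Kat2a like Zfp120 (0.98), Kat2b like Ecpas (0.968), Crebbp like Lats1 (0.948) and Kat5 like Ssrp1 (0.904). For Kat6a, Kat6b and Hat1 the closest genes, Arhgef18, Prdm2 and Pdlim4, also had 0 counts in HFD Mof+/- replicate 1, and without it r was 0.958, 0.947 and 0.887 over 9 libraries. Between members the highest r without that library was 0.967, of Kat2b with Ep300, and that of Hat1 with each of the other 8 was below 0, from -0.62 to -0.0112. The points share the groups, the depth and the length effect of each library, so these values describe the libraries.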

How the data were processed

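Gene expression was measured by mRNA-seq (TruSeq RNA v2, polyA RNA) in 10 libraries of mouse WAT. The authors aligned reads to GRCm38 with STAR, counted them per gene with featureCounts (Subread 1.5.0-p1, per the labels), and deposited raw counts without normalization. The annotation release and strand setting are not given in the sources used here. Total counts on genes, from 1044355 to 17171947, set the precision, and intervals and floors (3 counts) cover counting error only.

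Groups came from the sample labels. Identifiers were matched to GENCODE M21 with the version dropped (47310 of 47937 matched). The quasi-likelihood test of edgeR 4.0.16, after TMM scaling and filterByExpr, was fitted to the 2 groups of each comparison, or to all 10 libraries for the interaction. P-values were adjusted over all genes by Benjamini-Hochberg, with a threshold of 0.05. Intervals of 95% used the t quantile at the total degrees of freedom. The length correction was an offset from a smooth fit to exon length, centred per library. Alternatives were DESeq2 1.42.0, its size factors, other filters, 1 fit of 10 libraries, the replicate number as a block, each library left out, totals without mitochondrial and muscle genes, and the headings' grouping. The step was also run on simulated counts without the excess zeros of the shallow library, so this does not check the fits that hold it. R 4.3.3, Python 3.11.15, pandas 2.3.3, scipy 1.17.1 and matplotlib 3.10.9 were used.

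The members and lists were chosen with earlier results of these data known. The named genes were the 9 members, Kat8, and of each list at most 4 genes past the threshold, or the 1 with the smallest p. Same-numbered SD libraries of the genotypes did not deviate together (correlations 0.0304 to 0.0686), so the block was not used in the main test.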

Additional observations from a re-analysis of the deposited data

How the results depend on the processing

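Depth limits the HFD Mof+/- group most, where 1 of 2 libraries had 1044355 counts. Among the log2 fold changes of the members and Kat8, 460 of 511 values under alternatives that kept all libraries had the same sign and the same side of the threshold, as had 253 of 300 with a library left out. The cause of the changes was not tested, except where fewer libraries or genes were fitted. A fit without a library of a pair leaves a lone library that is assumed to vary like the other group.

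On SD, 727 genes passed between the genotypes in edgeR. The count was 194 in 1 fit of 10 libraries, 62 with that fit and the length correction, 1235 with at least 10 counts in every library, 342 with the length correction, 2211 in DESeq2, 1840 without a filter, 428 with the replicate block, 100 with the replicate block and length correction, and 0 with the headings' grouping (232 at an unadjusted p under 0.05). Leaving out a library gave 17 genes (0.115%, without SD Mof+/- replicate 2) to 1026 genes (6.89%, without SD Mof+/- replicate 1), and 0 to 1 members. The genes were 19, 35 and 74 without SD Mof+/+ replicates 1, 2 and 3. With the headings' grouping the log2 fold change was 0.21 for Kat2a, 0.10 for Kat2b, 0.04 for Kat6a, 0.14 for Kat6b, 0.41 for Kat7, 0.00 for Ep300 and 0.03 for Crebbp, against negative values by the labels. Kat5 turned to -0.08 with the length correction, -0.03 with it in 1 fit of 10 libraries, -0.02 with the replicate block and -0.17 with block and correction, and ranged from -0.20 to 0.35 with libraries left out.

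On HFD, the count of 0 genes between genotypes became 1 in the fit of 10 libraries with or without the length correction, 209 in DESeq2, 200 with the replicate block and 185 with block and length correction. Leaving out a library gave 92 to 7551 genes and 0 to 5 members. The 5 members, without HFD Mof+/- replicate 2, were Kat2a, Kat6a, Kat6b, Kat7 and Hat1, of which Kat6a, Kat6b and Hat1 were then compared with a library at 0 counts. Crebbp turned to 0.14 with the length correction, 0.10 with it in the fit of 10 libraries and 0.06 with it and the block. Kat8 turned to -0.06 in the fit of 10 libraries, -0.16 there with the length correction, -0.08 with at least 10 counts, -0.02 with the length correction, -0.04 with the block and -0.13 with both. With libraries left out Kat2a ranged from -0.96 to 0.02, Kat7 from -1.75 to 0.08, Ep300 from -0.52 to 0.65, Crebbp from -0.57 to 0.26 and Kat8 from -0.66 to 0.50.

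In Mof+/+, the 1457 genes that passed between diets were 142 in the fit of 10 libraries, 147 there with the length correction, 2990 in DESeq2 and 0 with the headings' grouping (1404 at an unadjusted p under 0.05). The 2 members were 0 in the fit of 10 libraries, with or without the length correction, with that correction alone or with the block, and with the headings' grouping, and 1 (Ep300) with the replicate block. Left-out libraries gave 64 genes (without HFD Mof+/+ replicate 2) to 2230 genes (without SD Mof+/+ replicate 3), and 0 to 2 members. The genes were 249 without HFD Mof+/+ replicate 1 and 250 without SD Mof+/+ replicate 1. Crebbp turned to 0.04 with the length correction, also in the fit of 10 libraries, 0.02 with it and the block and 0.03 with the headings' grouping. Kat2a turned to -0.01 with the length correction in the fit of 10, and Kat7 to 0.04 and Kat8 to 0.06 with the headings' grouping. Kat8 ranged from -0.09 to 0.02 with libraries left out.

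In Mof+/-, the count of 0 between diets became 189 in the fit of 10 libraries, 207 there with the length correction, 26 with at least 10 counts, 402 in DESeq2, 429 without a filter, 245 with the replicate block and 257 with block and correction. Left-out libraries gave 0 to 2122 genes and 0 to 3 members, the highest without HFD Mof+/- replicate 2. Ep300 turned to -0.46 and Crebbp to -0.10 with the headings' grouping, and with the block Ep300 was -0.47, Crebbp -0.09 and Kat8 -0.02. With block and correction Ep300 was -0.23 and Kat8 -0.13. With libraries left out Kat2b ranged from -0.68 to 0.10, Kat5 from -0.34 to 0.23, Kat6a from -10.92 to 0.01, Kat7 from -1.79 to 0.05, Hat1 from -10.59 to -0.71, Ep300 from -0.61 to 0.74, Crebbp from -0.14 to 0.71 and Kat8 from -0.55 to 0.61.

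In the interaction, 14 genes became 38 with at least 10 counts, 490 in DESeq2, 380 without a filter and 0 with the headings' grouping (1402 at an unadjusted p under 0.05). Left-out libraries gave 4 to 3164 genes and 0 to 3 members, the highest without HFD Mof+/- replicate 2. With the headings' grouping Kat2a turned to -0.61, Kat2b to -0.38, Kat6a to -0.95, Crebbp to -0.15 and Kat8 to -0.04, and Kat6a to -0.25 with block and correction. With libraries left out Kat2b ranged from -0.18 to 0.61, Kat6a from -10.27 to 1.06, Kat6b from -9.98 to 0.20, Kat7 from -1.45 to 0.45, Hat1 from -11.59 to -1.31 and Kat8 from -0.45 to 0.65. The lowest of these values for Kat6a, Kat6b and Hat1 rest on a lone library at 0 counts and are no measure of size. The combinations of the length correction with the block or the fit of 10 libraries were chosen after seeing the data.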
